A study of Rattus norvegicus with 39 samples.

Results

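Cox4i1, Cox5a, Cox5b, Cox7a2l2 and Cox15 are nuclear genes of cytochrome c oxidase, and their transcripts were followed through 13 groups of rats. They are 5 of the 26123 genes in the count files, and all 5 passed the filter on low counts. They were chosen by symbol from genes that the study had called on these same samples, mostly in comparisons with ad libitum fed rats of 28 months, so their differences from that group are given as description only, without a test. The files name genes by identifier, and symbols were at hand for 1669 identifiers, those listed in the study's tables of called genes.

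Cytochrome c oxidase (complex IV) is the last enzyme of the mitochondrial respiratory chain. It passes electrons from cytochrome c to oxygen and pumps protons across the inner membrane, and neurons depend on it heavily because they make most of their ATP by respiration. Its catalytic core is encoded by mitochondrial DNA, the surrounding subunits are encoded in the nucleus, and assembly factors insert the haem and copper.

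The tissue was cerebral cortex, and the rats were males of the BN strain (BN/SsNOlaHSD). RNA of 2 rats was pooled for each of the 39 libraries, and every group had 3 such pools (78 rats in all), so no value belongs to a single animal. All rats ate the CRM diet ad libitum (AL) when young and were housed singly afterwards. Caloric restriction (CR) was 55% of the AL food intake, and supplemented diets (LA) held 1.5 g/kg of DL-α-lipoic acid. The groups were AL and CR at 6, 12 and 28 months, AL+LA at 12 and 28 months, and at 28 months 5 groups whose diet changed at 12 months, written with the earlier diet first (AL>CR, CR>AL, CR>CR+LA, AL+LA>CR and CR>AL+LA).

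Reads on genes ranged from 494091 in pool 5 (AL, 12 months) to 5966979, with a median of 4005959. The 9 AL libraries differed from the other 30 in ways that diet labels do not describe. Over all ages the ranges of unaligned reads and of each marker sum overlapped, but within an age some did not. Markers with a symbol are genes the study called on these samples, so differences in them were favoured in advance. The share of reads that did not align was 27.5 to 36.1% in AL, against 34.1 to 43.2% in the others. Within each age AL lay below all other diets. The shares were 29.1 to 32.1% in AL and 40.2 to 40.8% in CR at 6 months. At 12 months they were 30.4 to 36.1% in AL and 39.3 to 43.2% elsewhere, and at 28 months 27.5 to 33.2% and 34.1 to 41.3%. The summed level of the 7 cerebellar markers that had a symbol, of 12 listed, in CPM (reads on a gene scaled to a common library size, as defined below) was 94.3 to 1956 in AL and 69.3 to 165 in the others. AL pools 2, 5, 6, 7 and 9 were the high ones. Mog, the only oligodendrocyte marker of 5 with a symbol, was 89.6 to 127 CPM in AL and 105 to 208 CPM elsewhere, and the 2 of 5 microglial markers with a symbol summed to 22.4 to 38.8 and 29.9 to 49.8 CPM. At 28 months neither overlapped, with Mog at 89.6 to 100.1 CPM in AL and 112.7 to 195.6 CPM elsewhere. The microglial sum was then 24.3 to 28.1 CPM in AL and 29.9 to 49.8 CPM elsewhere. At 6 months only Mog was apart, and at 12 months both ranges overlapped those of the other diets. The sum of 3 of 10 cortical neuron markers was 371 to 525 CPM in AL and 295 to 468 CPM elsewhere, and at 6 months AL (379 to 525 CPM) lay above CR (295 to 376 CPM). The sum of 2 of 5 astrocyte markers differed between AL and the other diets in opposite directions at 12 and 28 months. It was 804 to 841 CPM in AL at 28 months, below the 965 to 1611 CPM of all other diets of that age, and 1502 to 1741 CPM in AL at 12 months, above CR (825 to 916 CPM) and AL+LA (1031 to 1054 CPM). At 6 months it overlapped, with 1211 to 1452 CPM in AL and 830.5 to 1223 CPM in CR. The part of these markers in the results below was not tested, and none of the 4 endothelial and 3 choroid plexus markers had a symbol. The AL diet and whatever else sets these 9 libraries apart cannot be told apart in any comparison with AL below, and in bulk tissue fewer cells of a type and less RNA per cell cannot be told apart either.

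The promoters of Cox5b, Cox4i1 and Cox7a2l2 are shown because these transcripts separated AL from every other diet, the first pair being lower in AL and the last higher. The sequences are those of RefSeq on GRCr8, matched by symbol (5 of 5), from 250 bases before to 50 after the gene start, on the + strand, at chr9:46417587-46417886, chr19:65630133-65630432 and chr14:55513973-55514272. Capitals mark matches, on either strand, to letters bound by GABP (CCGGAAG), to the GC box of Sp1 (GGGCGG) or to a TATA box (TATAAA).

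Cox5b: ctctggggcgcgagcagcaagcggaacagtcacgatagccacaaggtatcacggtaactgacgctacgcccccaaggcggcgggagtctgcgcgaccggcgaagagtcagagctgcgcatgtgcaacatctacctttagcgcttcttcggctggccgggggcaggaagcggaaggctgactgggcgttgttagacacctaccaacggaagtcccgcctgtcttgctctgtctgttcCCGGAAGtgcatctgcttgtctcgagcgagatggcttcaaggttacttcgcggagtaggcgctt

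Cox4i1: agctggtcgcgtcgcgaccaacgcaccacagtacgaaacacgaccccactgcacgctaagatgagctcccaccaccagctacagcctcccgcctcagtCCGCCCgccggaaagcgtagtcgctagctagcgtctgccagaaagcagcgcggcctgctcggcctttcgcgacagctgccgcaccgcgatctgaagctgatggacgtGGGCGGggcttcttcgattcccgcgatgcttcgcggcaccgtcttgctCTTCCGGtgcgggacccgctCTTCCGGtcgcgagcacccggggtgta

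Cox7a2l2: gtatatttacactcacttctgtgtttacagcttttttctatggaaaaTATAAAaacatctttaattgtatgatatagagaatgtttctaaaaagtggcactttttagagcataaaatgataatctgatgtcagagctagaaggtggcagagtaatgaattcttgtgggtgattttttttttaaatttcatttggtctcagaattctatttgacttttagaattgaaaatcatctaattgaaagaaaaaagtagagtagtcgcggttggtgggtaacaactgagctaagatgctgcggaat

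GABP, also called NRF-2, is a regulator of many respiratory chain genes. Its letters occurred in the windows of Cox4i1 (2 matches), Cox5b and Cox15, and in 8.75% of all 33469 promoters of the same length. The GC box occurred in Cox4i1 and Cox5a, 2 matches each, and in 33.1% of all promoters. Cox7a2l2 held no match to either and a TATA match 203 bases before its start, letters found in 14.2% of all promoters. The letters of NRF1 (GCATGCGC, 2.47% of promoters) and YY1 (AAGATGGC, 3.17%) were in none of the 5 windows. GC content was 60.3 to 69.0% in Cox4i1, Cox5a, Cox5b and Cox15 and 31.3% in Cox7a2l2, beside a median of 51.7% over all promoters. Each match is a match of letters and is no measure of binding.

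Levels are CPM, a gene's count relative to all reads on genes, after TMM scaling of library size over all 39 libraries, and are compared within a gene only. Cox5b, which encodes the zinc-binding peripheral subunit Vb, showed the widest gap between diets. In AL it measured 47.6, 58.6 and 65.1 CPM at 6 months, 48.3, 59.0 and 117 CPM at 12 months and 96.6, 96.7 and 118 CPM at 28 months. All 30 other libraries lay between 136 and 225 CPM, above every AL library. The mean was 78.5 ± 28.5 CPM in AL (SD, n = 9) and 175 ± 23.3 CPM elsewhere (SD, n = 30), a ratio of 2.23.

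Cox4i1 encodes the ubiquitous isoform of subunit IV, the largest nuclear subunit. AL pools measured 148, 178 and 189 CPM at 6 months, 165, 198 and 223 CPM at 12 months and 216, 217 and 237 CPM at 28 months. Every other library was higher, from 239.6 CPM in a 28 month AL+LA pool to 367 CPM in a 12 month AL+LA pool. The AL mean was 197 ± 29.4 CPM (SD, n = 9) and that of the others 305 ± 29.9 CPM (SD, n = 30).

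Cox7a2l2, named for its likeness to subunit VIIa, went the other way. Rats carry several near copies of this family, and the authors' mapping discarded reads with more than 1 match, so its level is uncertain. It measured 810.1, 850.4 and 905 CPM at 6 months of AL, 702, 739.9 and 858 CPM at 12 months and 790.3, 904 and 1497 CPM at 28 months. The highest value came from pool 9, whose cerebellar marker sum was 1345 CPM. Pool 7, at 904 CPM of Cox7a2l2, had a sum of 1355 CPM, and pool 6, at 858 CPM, had 1956 CPM. Over all 39 libraries Pearson's r of Cox7a2l2 with a cerebellar marker score, the mean log2 CPM of the 7 markers, was 0.68. It was 0.48 in the 9 AL libraries and 0.14 in the 30 others. For Cox15, Cox4i1, Cox5b and Cox5a, r with the score was -0.63, -0.54, -0.45 and -0.30 over the 39. Over the 30 it was -0.12, -0.09, 0.14 and -0.13. These relations were described and not tested. All other libraries lay between 374 and 658 CPM, below the lowest AL pool.

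Cox5a encodes the matrix-facing subunit Va, and Cox15 the enzyme that converts haem O to haem A. Neither separated AL as a whole, since AL pools spanned 33.4 to 71.2 CPM for Cox5a and 19.5 to 32.1 CPM for Cox15, overlapping ranges of 37.7 to 75.8 and 26.3 to 37.6 CPM elsewhere. Their lowest group was AL at 28 months, with 33.4, 38.2 and 40.5 CPM for Cox5a and 19.5, 20.0 and 22.9 CPM for Cox15. A second identifier annotated as subunit Va, ENSRNOG00000022490, may share sequence with Cox5a and is likewise uncertain. It measured 19.4 to 26.7 CPM in AL at 28 months, 26.5 to 43.0 CPM in AL at 6 months, 27.1 to 67.1 CPM in AL at 12 months and 25.96 to 46.3 CPM in the 30 libraries without AL.

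**Figure D1:**
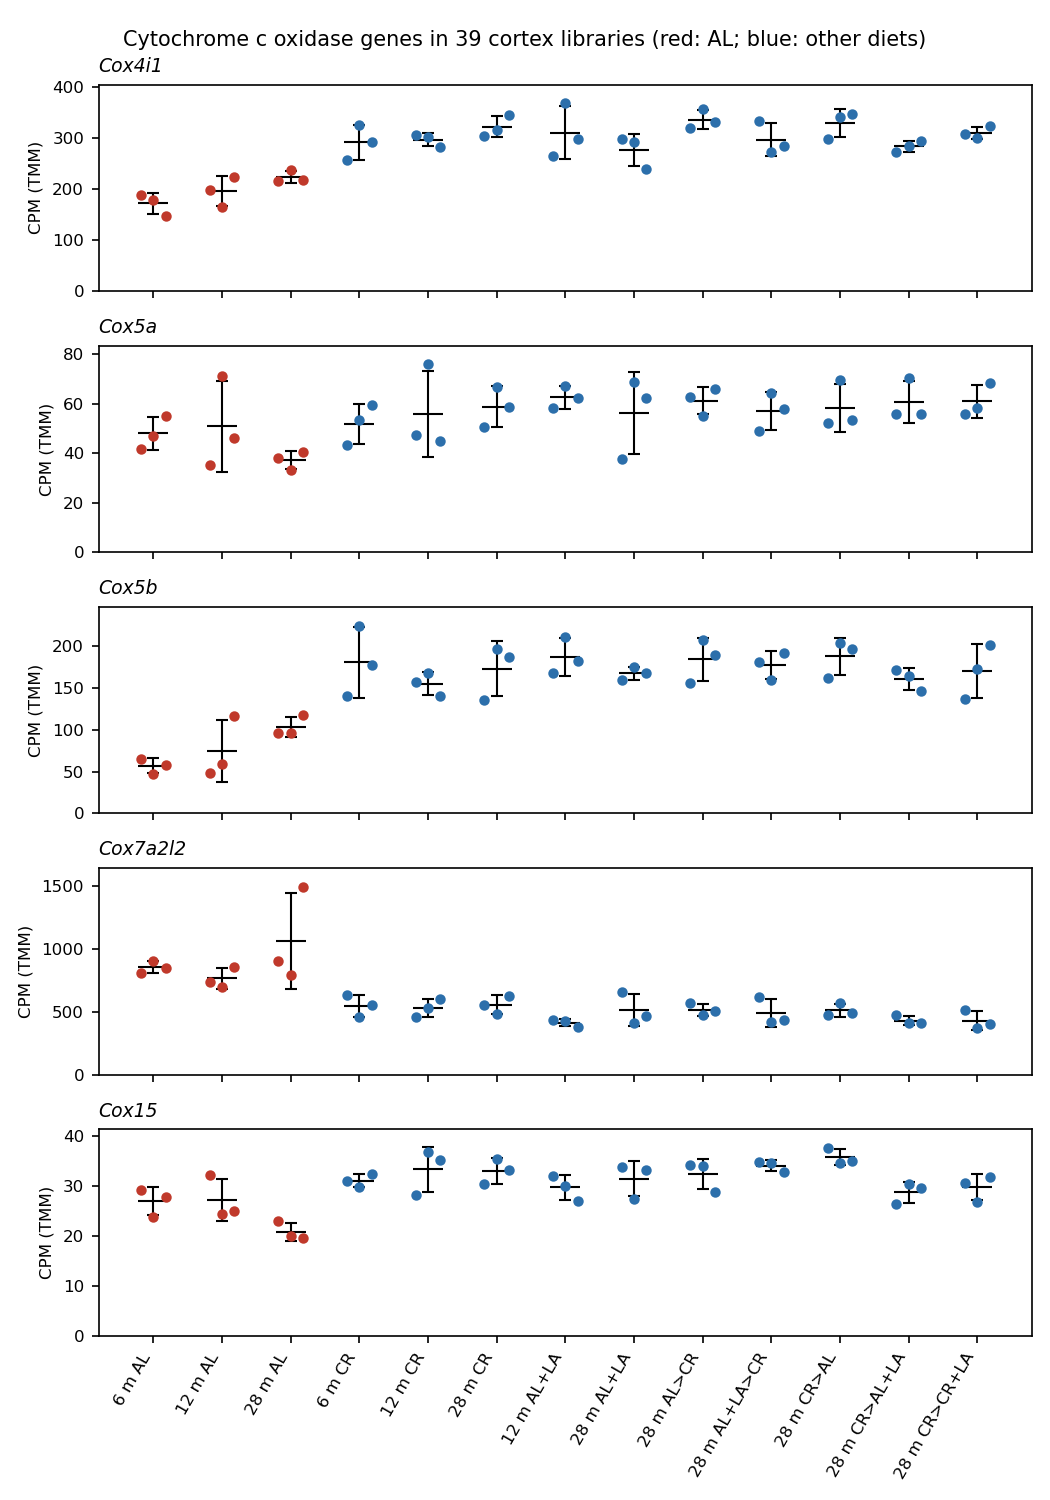
Level of each of the 5 genes in CPM (linear axis from 0, TMM scaled) in the 13 groups, each point a pool of 2 rats and each cross bar the mean with its SD (n = 3 pools). The 9 AL pools lie at 47.6 to 118 CPM for Cox5b and 148 to 237 CPM for Cox4i1, under all 30 others, and at 702 to 1497 CPM for Cox7a2l2, above all others.

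Thus 3 of the 5 genes had AL libraries that did not overlap the others at any age, 2 lower and 1 higher, while 0.505% of all 17230 genes tested did so. This count includes the 28 month libraries used to choose the genes. In the 6 and 12 month libraries alone, 6 AL and 9 others, the same 3 genes did not overlap, against 2.71% of all genes. For Cox5b this restricted set still holds the 6 month AL pools on which it was also chosen. Ranked by mean level, 11 of the 12 neighbouring groups overlapped for each gene. For Cox4i1, Cox5b and Cox7a2l2 the remaining gap lay between the AL groups and all other groups, and for Cox5a and Cox15 it lay between AL at 28 months and the next group in the ranking.

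The comparisons at 6 and 12 months asked whether the diets differed early in life. At 6 months Cox4i1 was higher in CR than in AL, with 257, 291 and 324 CPM against 148, 178 and 189 CPM, a log2 fold change of 0.75 (SE 0.17) and an adjusted p of 0.0271 (edgeR quasi-likelihood test, Benjamini-Hochberg over all genes). It was the only one of 4 genes tested to pass at 6 months, when 2.2% of all genes passed. The call was lost without AL pool 2 (adjusted p = 0.111), CR pool 11 (0.122) or CR pool 12 (0.141), with log2 fold changes of 0.69 to 0.77. Cox7a2l2 ranged from 458 to 634 CPM in CR and 810.1 to 905 CPM in AL, a log2 difference of -0.66 (SE 0.18) with an adjusted p of 0.0644, and DESeq2 gave 0.00357. Cox5a (0.09, SE 0.20) and Cox15 (0.18, SE 0.20) did not pass. Cox5b is described only, because its 6 month AL pools served in choosing it. It measured 141, 177 and 225 CPM in CR, 3.13-fold the AL level (log2 1.65, SE 0.20).

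At 12 months Cox5b was 141, 157 and 168 CPM in CR and passed the test against AL (log2 1.02, SE 0.23, adjusted p = 0.0197). Neither group overlapped the other, which was not counted over all genes, although AL pool 6 at 117 CPM stood far above AL pools 4 and 5. Without pool 6 the log2 difference was 1.60, without pool 4 it was 0.70, and the call was lost without AL pool 5 (adjusted p = 0.113) or CR pools 13 (0.0525) or 14 (0.0929). Cox5b was 1 of 5 genes called, with 2.16% of all genes called. Cox4i1 was 282, 302 and 305 CPM in CR, a log2 difference of 0.58 (SE 0.15) whose adjusted p of 0.0514 missed the threshold, while DESeq2 gave 0.0223. Cox7a2l2 was 462, 530.4 and 599.7 CPM in CR, -0.54 (SE 0.15) with an adjusted p of 0.0655 and 0.0191 by DESeq2. An edgeR fit of all groups gave it -0.53 (adjusted p = 0.0719), and -0.34 (adjusted p = 0.379) with the cerebellar marker score as a covariate. Cox5a (0.27, SE 0.24) and Cox15 (0.25, SE 0.22) did not pass.

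AL+LA at 12 months differs from AL, by its label, in the supplement alone, and 3 of 5 genes passed the test, where 3.17% of all genes did. Cox5b rose to 168, 182 and 212 CPM (log2 1.29, SE 0.23, adjusted p = 0.00291). Cox7a2l2 fell to 380.4, 427 and 435 CPM (log2 -0.89, SE 0.14, adjusted p = 0.00118). Cox4i1 rose to 265, 297 and 367 CPM (log2 0.65, SE 0.16, adjusted p = 0.0278), a call lost without AL pool 5 (0.0856) or AL+LA pools 38 (0.237) or 39 (0.0637). For these 3 genes the AL and AL+LA pools did not overlap, and the share of all genes without overlap between these pools was not counted. The log2 difference of Cox5b was 0.96 without AL pool 4 and 1.87 without AL pool 6, and it was called in both cases. Cox5a (0.44, SE 0.21) and Cox15 (0.08, SE 0.22) did not pass. The CR and AL+LA comparisons at 12 months share their 3 AL libraries and are not independent of each other. Among those AL libraries, pools 5 and 6 held cerebellar marker sums of 496 and 1956 CPM. With AL represented by pool 4 alone, an edgeR fit of all groups gave log2 differences in AL+LA of 1.96 for Cox5b, -0.84 for Cox7a2l2 and 0.65 for Cox4i1. The same fit with all pools gave 1.29, -0.89 and 0.64. In CR these genes were at 1.69, -0.48 and 0.58 with pool 4 alone and at 1.02, -0.53 and 0.58 with all pools. Pool 4 had the lowest Cox5b of the AL pools at 12 months. A lone pool has no spread of its own, so only effect sizes are given. The change in the CR difference between 6 and 12 months was tested as an interaction by edgeR, which called 0 of all genes (1054 at an unadjusted p under 0.05). On the log2 scale it was -0.19 (SE 0.22) for Cox4i1, 0.14 (SE 0.34) for Cox5a, 0.09 (SE 0.23) for Cox7a2l2 and 0.05 (SE 0.29) for Cox15. For Cox5b, as description, it was -0.66 (SE 0.34).

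At 28 months 7 diets can be set beside AL, all against the same 3 AL libraries that chose the genes. For Cox4i1, Cox5b and Cox15, 21 of the 21 libraries on other diets exceeded every AL library, and for Cox5a 20 did, the exception being an AL+LA pool at 37.7 CPM. For Cox7a2l2 all 21 were lower. The choice of the genes favoured such separation, and the share of all genes that separated in this way at 28 months was not counted. The log2 differences from AL ran from 0.63 to 0.87 for Cox5b, 0.31 to 0.59 for Cox4i1, 0.58 to 0.71 for Cox5a, 0.45 to 0.79 for Cox15 and -1.31 to -0.92 for Cox7a2l2. With AL represented by pool 8 alone, whose cerebellar marker sum was 99.5 CPM against 1355 and 1345 CPM in pools 7 and 9, they ran from 0.74 to 0.96, 0.22 to 0.50, 0.75 to 0.87, 0.52 to 0.83 and -0.88 to -0.51. A fit of all groups with the cerebellar marker score as a covariate gave -1.11 to -0.70 for Cox7a2l2 and 0.35 to 0.66 for Cox15. It gave 0.84 to 1.08 for Cox5b, 0.32 to 0.60 for Cox4i1 and 0.69 to 0.82 for Cox5a. Of these genes Cox7a2l2 depended most on 1 library, with a difference of -0.60 for CR once pool 9 was left out. Over all genes the share called was 4.13% for CR, 4.82% for AL+LA, 4.85% for AL>CR, 6.98% for CR>AL, 4.45% for CR>CR+LA, 4.78% for AL+LA>CR and 5.9% for CR>AL+LA.

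**Figure D2:**
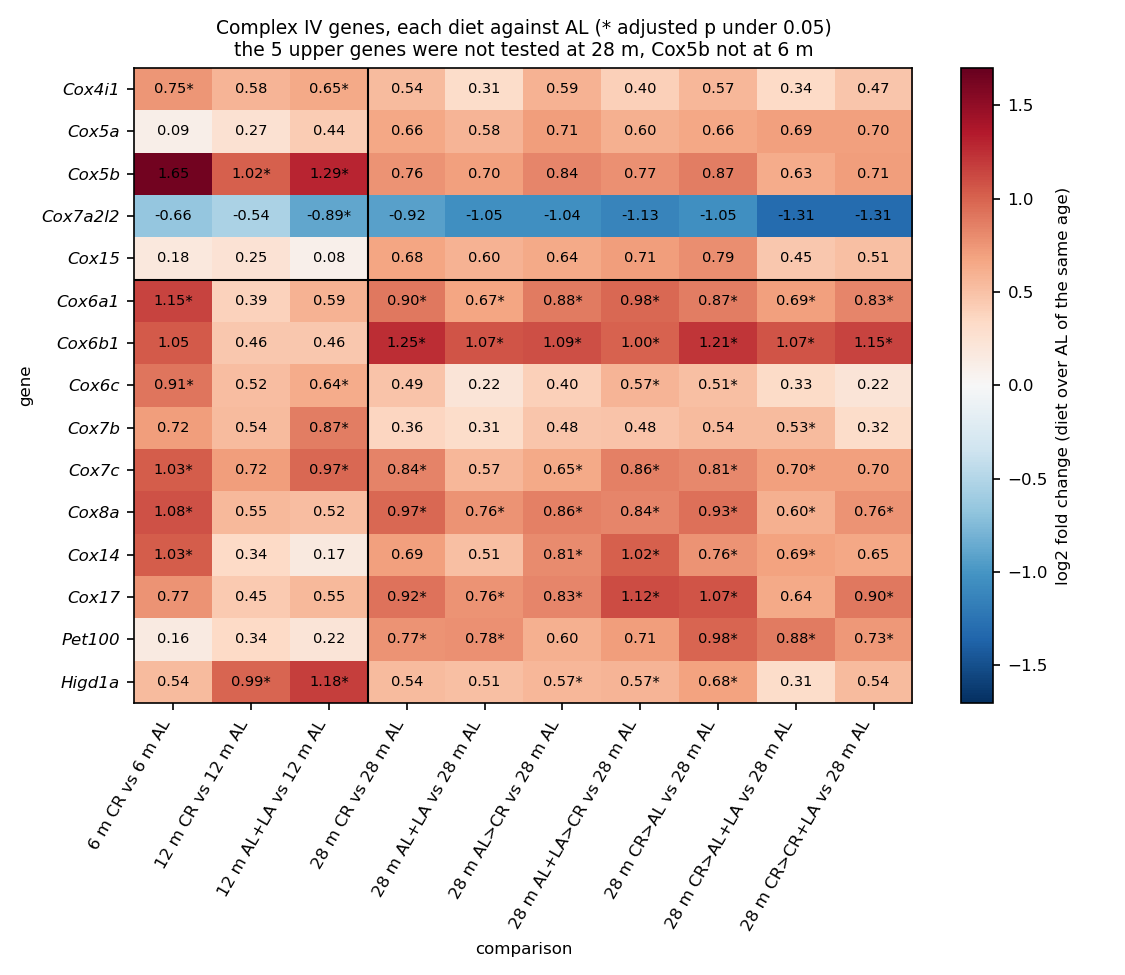
Heat map of the log2 difference of each diet (columns) from AL of the same age for the 5 genes and 10 other nuclear complex IV genes (rows), red higher and blue lower, an asterisk marking a tested value with an adjusted p under 0.05. Cox7a2l2 lies below 0 in all 10 comparisons and Cox5b lies highest of the 5 at 12 months, at 1.02 for CR and 1.29 for AL+LA.

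The 7 diets other than AL were then compared with each other at 28 months, to see whether restriction, the supplement or the order of diets made a difference. Every switch was at 12 months, so its time was not compared. Group means differed at most 1.29-fold for Cox7a2l2 (429.5 CPM in CR>CR+LA, 555 CPM in CR), 1.24-fold for Cox15, 1.22-fold for Cox4i1, 1.17-fold for Cox5b and 1.09-fold for Cox5a. An edgeR test of any difference among the 7 diets called 0 of 4 genes, Cox4i1 being left out as it had also been chosen on the order of the switch. The count was 0 at an unadjusted p under 0.05 and 0 by DESeq2, and 0.0754% of all genes were called. The libraries of these 7 diets were the other side of the comparisons on which the genes were chosen. The result is therefore not independent of that choice. Rats moved from CR to AL at 12 months had 162, 197 and 204 CPM of Cox5b, overlapping lifelong CR rats (136, 187 and 197 CPM) and above lifelong AL rats.

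Diets were also grouped by lifespan as known for these cohorts. CR, AL>CR and CR>AL+LA counted as long-lived (9 libraries) and AL+LA, AL+LA>CR and CR>AL as not long-lived (9 libraries), with AL and CR>CR+LA left out. The log2 differences ran from -0.10 for Cox15 (SE 0.08) to 0.08 for Cox5a (SE 0.10). None of 4 genes was called by edgeR or DESeq2 or reached an unadjusted p under 0.05, and 0.0348% of all genes were called. These libraries too were part of the comparisons with AL on which the genes were chosen, so the result is not independent of that choice. Cox4i1 had been chosen in part on lifespan and is described only. Its difference was 0.07 (SE 0.06).

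Ageing within a diet was followed in AL, CR and AL+LA. In AL, where the 28 month values are descriptive, Cox5b differed between 28 and 6 months by 0.86 on the log2 scale (SE 0.18) and Cox4i1 by 0.39 (SE 0.16), whereas Cox5a (-0.35, SE 0.19) and Cox15 (-0.37, SE 0.21) were lower at 28 months. Cox7a2l2 differed by 0.32 (SE 0.21), a value that was -0.02 without pool 9 and -0.11 without pools 7 and 9. From 12 to 28 months the differences in AL were 0.45 (SE 0.24) for Cox5b, 0.18 (SE 0.17) for Cox4i1, 0.48 (SE 0.21) for Cox7a2l2, -0.33 (SE 0.24) for Cox5a and -0.42 (SE 0.24) for Cox15. These values rested on single pools: Cox5b ran from 0.15 without pool 4 to 1.003 without pool 6, Cox7a2l2 was 0.15 without pool 9 and 0.04 without pools 7 and 9, Cox5a ran from -0.55 without pool 4 to -0.11 without pool 5, Cox4i1 from 0.09 without pool 5 to 0.28 without pool 6, and Cox15 was -0.24 without pool 4. Of all genes 0.0987% were called between 28 and 6 months and 0.517% between 28 and 12 months. Between 12 and 6 months of AL, 4 genes could be tested and 0 were called, beside 0.0987% of all genes, with differences from -0.15 (Cox7a2l2, SE 0.18) to 0.20 (Cox4i1, SE 0.19).

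In CR none of the 5 genes passed at any age. The differences ran from -0.22 (Cox5b, SE 0.16) to 0.12 (Cox5a, SE 0.19) between 12 and 6 months, from -0.07 (Cox5b, SE 0.17) to 0.18 (Cox5a, SE 0.16) between 28 and 6 months and from -0.02 (Cox15, SE 0.16) to 0.16 (Cox5b, SE 0.13) between 28 and 12 months. The shares of all genes called were 0.029%, 0.0522% and 0.273%. In AL+LA between 28 and 12 months they ran from -0.17 (Cox4i1, SE 0.12) to 0.31 (Cox7a2l2, SE 0.13), with 0 of 5 genes and 0.0174% of all genes called. Over these 5 tested age comparisons 0 of 24 values were called by edgeR, with a smallest adjusted p of 0.875, and 0 by DESeq2. At an unadjusted p under 0.05 the count was 0 except in AL+LA, where Cox7a2l2 was the 1 gene. The CR and AL+LA comparisons with 28 months share their older libraries with the contrasts on which the genes were chosen.

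**Figure D3:**
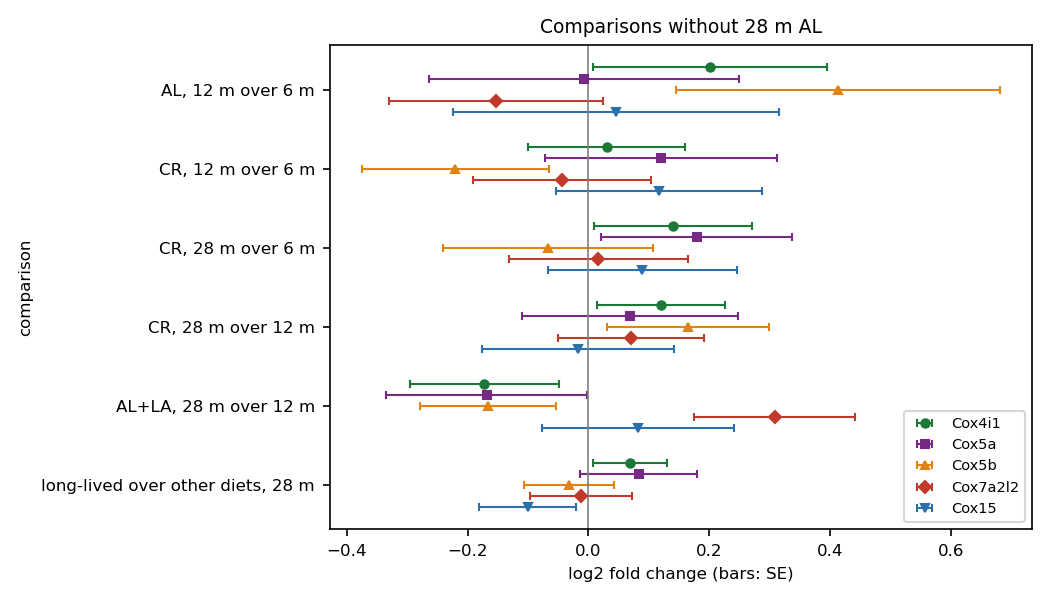
Log2 differences of the 5 genes between ages within AL (12 over 6 months), CR and AL+LA, and between long-lived and other diets at 28 months, each point 1 gene with a bar of 1 SE to either side. The tested values between ages lie from -0.22 to 0.31, and Cox5b between 12 and 6 months of AL, a descriptive value, lies at 0.41.

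A list of 41 other nuclear genes of complex IV, 16 subunits and 25 assembly factors, was read beside the 5. Only 10 had a symbol, 6 subunits and 4 assembly factors. Symbols came from genes the study called on these samples, so calls of these 10 genes were favoured in advance. Their counts, medians and order are not independent evidence of a change or of a direction. Values over all genes include genes without a symbol and are no like measure for them. Against AL at 28 months all called genes were higher in the other diet: 6 of 10 for CR, 5 for AL+LA, 7 for AL>CR, 9 for CR>AL, 5 for CR>CR+LA, 8 for AL+LA>CR and 7 for CR>AL+LA. Their median log2 differences were 0.62 to 0.85, with medians of all genes from -0.02 to 0.00. With AL pool 8 alone the counts were 1 for AL+LA>CR and 0 for the other 6 diets.

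Among the 10 genes, Cox6b1, which bridges the monomers of the enzyme, was called in 7 of 7 comparisons with log2 differences of 1.0045 to 1.25 (SE 0.21 to 0.24). Cox6a1 was called in 7 (0.67 to 0.98, SE 0.12 to 0.15), and so was Cox8a (0.60 to 0.97, SE 0.16 to 0.18). Cox17, the copper chaperone that supplies the enzyme, was called in 6 (0.64 to 1.12, SE 0.21 to 0.23), and Cox7c and the assembly factor Pet100 were each called in 5. Cox14 was called in 4, Higd1a in 3, Cox6c in 2 and Cox7b in 1.

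At 6 months 5 of the 10 were called, all higher in CR, with a median of 0.97 against -0.01 for all genes. Cox6a1 measured 86.4, 108 and 111 CPM in AL and 210.0, 229 and 247 CPM in CR (log2 1.15, SE 0.17, adjusted p = 0.00202), and Cox8a (1.08, SE 0.19) and Cox7c (1.03, SE 0.20) followed. The groups did not overlap for these 3 genes, and the share of all genes without such overlap was not counted. At 12 months CR was higher for 1 gene of 10, Higd1a, a factor of the respiratory chain supercomplexes (28.5, 33.3 and 33.7 CPM in AL, 56.6, 56.7 and 82.4 CPM in CR, log2 0.99, SE 0.21, adjusted p = 0.0107), with a median of 0.49 against 0.01. AL+LA at 12 months was higher for 4 of 10, among them Higd1a (1.18, SE 0.20), Cox7c (0.97, SE 0.19) and Cox7b (0.87, SE 0.15), with a median of 0.57 against 0.01. In the age comparisons, among the 7 diets and by lifespan edgeR called 0 of the 10 genes, while DESeq2 called Cox6c between 28 and 6 months of AL. Genes with an unadjusted p under 0.05 numbered 4 between 12 and 6 months of AL, 4 between 28 and 6 months, 1 between 28 and 12 months, 3 in AL+LA and 0 in the others. Over all ages 0 of the 10 separated the 9 AL libraries from the rest, although at 6 and 12 months Cox7b and Higd1a did, both lower in AL.

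Of the 3 subunits encoded by mitochondrial DNA only COX2, the subunit that takes electrons from cytochrome c, had a symbol. It was 2085, 2189 and 2581 CPM in AL at 28 months, where the other 7 diets lay between 2568 and 4164 CPM. In younger AL rats it measured 2145, 3036 and 3958 CPM at 6 months and 3003, 3878 and 4136 CPM at 12 months, so its AL libraries as a whole overlapped the others.

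The levels of the 5 genes were set beside the share of reads that did not align. Over all 39 libraries Pearson's r with that share was 0.78 for Cox4i1, 0.78 for Cox5b and -0.72 for Cox7a2l2, and in the 30 libraries without AL it was 0.22, 0.06 and 0.37. Within the 9 AL libraries it was -0.03, 0.09 and -0.70. Cox4i1 and Cox5b had an r of 0.91 with each other over 39 libraries and 0.58 over the 30, and Cox5b and Cox7a2l2 had -0.68 and -0.26. These are descriptions of libraries that share a sequencing depth, a scaling and, in part, a group, and they carry no test. Whether the cohort's libraries or its diet moved the genes cannot be told apart.

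**Figure D4:**
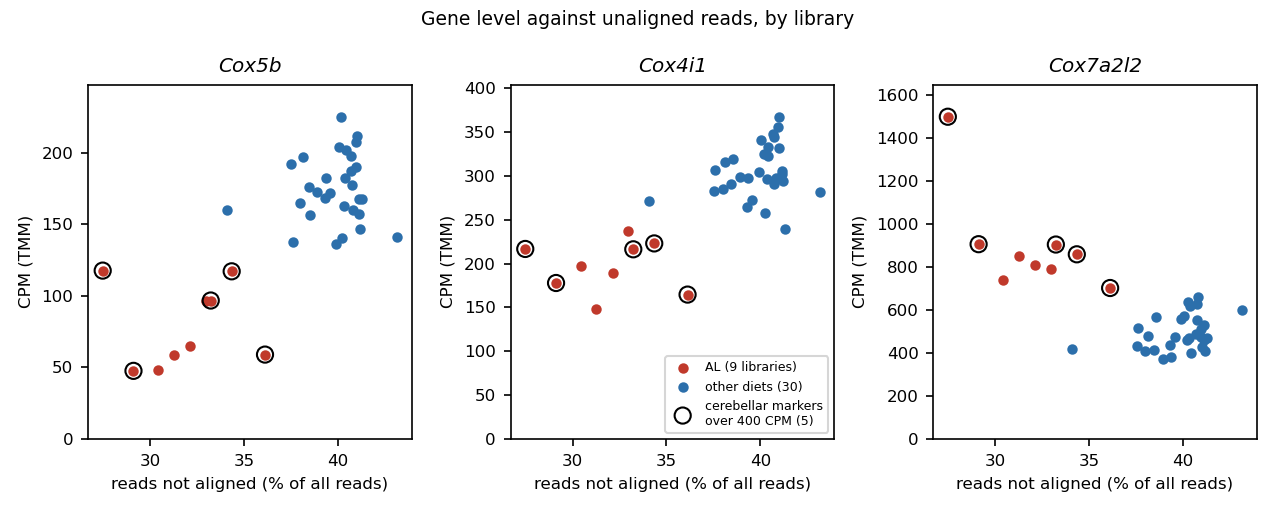
Level of Cox4i1, Cox5b and Cox7a2l2 (CPM) against the percent of reads not aligned in each of the 39 libraries, AL in red, other diets in blue and the 5 pools high in cerebellar markers circled. AL libraries lie at 27.5 to 36.1% and the others at 34.1 to 43.2%, and within the 30 others r is 0.22, 0.06 and 0.37. Within the 9 AL libraries r is -0.03, 0.09 and -0.70.

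Among the 1669 identifiers with a symbol, those whose log2 CPM followed each gene most closely over the 39 libraries were as follows. For Cox4i1 they included Lsmd1 (r = 0.93) and Atp5j2 (0.92), a subunit of ATP synthase, with 0.67 and 0.65 over the 30 libraries without AL. For Cox5b they were 3 identifiers that all carry the name RPL38 (0.95, 0.95 and 0.94, falling to 0.64, 0.66 and 0.63). For Cox5a they were Ndufab1, the acyl carrier protein of complex I (0.75), Gnas (0.75) and Rpl13 (0.74), with 0.68, 0.63 and 0.63 without AL. For Cox7a2l2 they were Immt, a protein of mitochondrial cristae (0.82), Dpp6 (0.82) and Elavl3 (0.82), and for Cox15 Actg1 (0.81), Ndufv1 of complex I (0.78) and Gstp1 (0.76). Without AL, r fell to 0.31 to 0.48 for the genes nearest Cox7a2l2 and Cox15.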

How the data were processed

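RNA depleted of ribosomal RNA, without poly(A) selection, was sequenced by the authors as SOLiD forward reads and aligned with Bowtie in colour space to the rat genome (Rnor_5.0, rn5 in the submitters' processing notes), keeping unique matches, and the deposited values are whole-number read counts per Ensembl gene from HTSeq-count. Of aligned reads, 80.4 to 84.4% were not assigned to a gene and were left out of library sizes.

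Genes with at least 1 CPM in at least 3 of 39 libraries were kept (17230 of 26123). Each pairwise comparison was fitted on its own 6 libraries with TMM scaling and the quasi-likelihood test of edgeR 4.0.16 (R 4.3.3), with Benjamini-Hochberg adjustment over all genes and a threshold of 0.05. SEs are the log2 fold change over the root of F. Correlations used log2(CPM + 1). Raw counts of the 5 genes ranged from 12 (Cox15) and 29 (Cox5b) to 6466 (Cox7a2l2).

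Members, lists and tests were chosen with earlier results of these data known. Other genes are named if listed for complex IV and called in at least 5 of the 7 comparisons with 28 month AL, or among the 3 smallest adjusted p per direction elsewhere, and for likeness the 3 highest r, of which 1 is not reported here. Alternatives were RLE size factors, no filter, DESeq2 1.42.0, a fit of all groups, a cerebellar marker covariate, and leaving out pools.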

Additional observations from a re-analysis of the deposited data

How the results depend on the processing

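RLE size factors changed no call of the results listed. Leaving out 28 month AL pools 7 and 9 left AL as a lone pool assumed to vary like the other groups. Of the other complex IV genes, 5 to 9 of 10 were called against AL with all pools. Fewer were then called in every diet, for a reason that was not tested. Leaving out pools 2, 5, 6, 7 and 9, chosen after seeing the data, left a lone AL pool at 12 and 28 months. Again fewer of these genes were called in every diet at 28 months and for CR at 12 months. For CR at 6 months, where AL pools 1 and 3 remained, 8 were called. CR>CR+LA had 8 called with no filter and in a fit of all groups.

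At 6 months 2 of 4 members were called, Cox4i1 and Cox7a2l2, with no filter, by DESeq2, in a fit of all groups, with the cerebellar covariate and without the 5 pools, and 9 of the 10 others in a fit of all groups and with the covariate. At 12 months of CR 3 of 5 members were called with no filter and by DESeq2 and 2 in a fit of all groups and with the covariate, and 3, 2 and 3 of the 10 others with no filter, in a fit of all groups and with the covariate. In AL from 6 to 28 months 1, 2 and 1 of the 10 others were called by DESeq2, in a fit of all groups and with the covariate. DESeq2 called 543 of all 17230 genes for CR at 6 months, where edgeR called 379. At 12 months of CR it called 332, where edgeR called 372, and in AL from 6 to 28 months 158, where edgeR called 17. The numbers over all genes in the other settings are not given, so gains there cannot be told from a looser test. The cause was not tested.

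The sign of some values changed. Cox15 in 12 month AL+LA was -0.023 with the covariate and -0.11 without the 5 pools, Cox5b in AL from 6 to 12 months -0.36 without the 5 pools (0.41 with them), Cox7a2l2 in AL from 6 to 28 months -0.11 without pools 7 and 9 and -0.071 without the 5 pools (0.32 with all), and Cox5b in CR from 6 to 28 months 0.0 with the covariate. With 1 pool left out in turn, the ranges that crossed 0 were -0.036 to 0.47 for Cox5a in 12 month CR, -0.027 to 0.26 for Cox15 in 12 month AL+LA, -0.11 to 0.69 for Cox5b in AL from 6 to 12 months, -0.0185 to 0.49 for Cox7a2l2 in AL from 6 to 28 months, -0.17 to 0.26 for Cox5a in CR from 6 to 12 months, -0.22 to 0.13 for Cox5b in CR from 6 to 28 months and -0.12 to 0.0545 for Cox15 in CR from 12 to 28 months.

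With 1 pool left out, the other complex IV genes called ranged from 2 to 8 for CR at 28 months, 2 to 5 for AL+LA, 3 to 8 for AL>CR, 4 to 8 for AL+LA>CR, 4 to 9 for CR>AL, 2 to 7 for CR>AL+LA, 2 to 6 for CR>CR+LA, 2 to 5 for CR at 6 months, 0 to 4 for CR at 12 months and 3 to 6 for AL+LA at 12 months. Members called ranged from 0 to 1 at 6 months, 0 to 2 for CR at 12 months and 2 to 3 for AL+LA at 12 months. No paired analysis was possible because the groups share no pool numbers. With 3 pools a group and as few as 12 reads on Cox15 in a library, small differences were not detectable at this depth.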
